A study of Mus musculus with 12 samples.

Results

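Genes that encode ligands read by immune cells were followed through a mouse melanoma experiment: Cd274, Pdcd1lg2, Lgals9, Cd47, Cd276, Pvr and Pvrl2. They were chosen by symbol as checkpoint and immune-recognition ligands, and all 7 are among the 23336 gene symbols of the deposited count table. The cells were B16, an established mouse melanoma line, transiently transfected with Cas9 and with either Adar sgRNA 1 or Non-targeting sgRNA 5, then subcloned. The product of Adar, ADAR1, converts adenosine to inosine in double-stranded RNA. Each genotype was then given 1000 U/mL of interferon-beta (IFNb), or the same volume of its vehicle (saline buffer with bovine albumin), and was collected after 36 h. Control and Adar-null cells under each of these treatments made up 4 groups of 3 libraries, and all 4 carried the history of Cas9 transfection and subcloning. Each genotype stands on 1 guide and its subcloned cells, so that a difference between genotypes and a difference between subcloned populations cannot be told apart. Whether a group's libraries stem from separate cultures is not stated, so p-values measure only the spread between these libraries, and that may be technical. Interferon-gamma, which the design also names, is not analysed here.

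Immune checkpoint ligands are surface or secreted proteins that tune lymphocytes and phagocytes. PD-L1 (Cd274) and PD-L2 (Pdcd1lg2) bind PD-1 on T cells and restrain them. Galectin-9 (Lgals9) is a sugar-binding protein and a ligand of TIM-3, and CD47 binds SIRP-alpha on macrophages and restrains phagocytosis. B7-H3 (Cd276) is a B7-family protein of tumour cells whose receptor is debated. CD155 (Pvr) and CD112 (Pvrl2, also called Nectin2) are nectin-family proteins that bind the activating receptor DNAM-1 and the inhibitory receptor TIGIT on T cells and NK cells. Type I interferon acts through its receptor, JAK kinases and factors of the STAT and IRF families, which bind short elements in the promoters of responding genes. Cd274 is a textbook target of this pathway and of IRF1.

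Promoter windows from RefSeq (GRCm38.p6, 250 bases before to 50 bases after an annotated start) were at hand for 6 of the 7 genes, with 7 starts in all. Both strands were searched for 4 short motifs: the IRF element AANNGAAA, the stricter core of the interferon-stimulated response element (ISRE core) GAAANNGAA, the gamma-activated site TTCNNNGAA, and GGGNNNTTC as a short form of the kappaB site. Among all 32851 windows of that length, 23.9% held the IRF element, 8.56% the ISRE core, 8.3% the gamma-activated site and 14% the kappaB form. The windows of Cd274 and Lgals9 are shown because these genes had the largest IFNb responses of the 7, and that of Pdcd1lg2 because it is the neighbour of Cd274 and was barely counted. For Cd47, 1 of the 2 overlapping windows is shown, because Cd47 responded without a match in either. They are written 5′ to 3′ on the strand of the gene, in lower case, with matches to the IRF element or the ISRE core in capitals. They lie at chr19:29367188-29367487 (plus strand) for Cd274, chr19:29410669-29410968 (plus) for Pdcd1lg2, chr11:78984875-78985174 (minus) for Lgals9 and chr16:49855404-49855703 (plus) for Cd47.
Cd274: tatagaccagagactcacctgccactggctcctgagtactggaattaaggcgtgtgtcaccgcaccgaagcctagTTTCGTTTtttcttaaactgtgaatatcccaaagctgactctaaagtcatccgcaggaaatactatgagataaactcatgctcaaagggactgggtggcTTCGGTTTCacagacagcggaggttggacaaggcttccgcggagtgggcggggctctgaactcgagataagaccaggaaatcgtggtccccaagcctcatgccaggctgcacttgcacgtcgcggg
Pdcd1lg2: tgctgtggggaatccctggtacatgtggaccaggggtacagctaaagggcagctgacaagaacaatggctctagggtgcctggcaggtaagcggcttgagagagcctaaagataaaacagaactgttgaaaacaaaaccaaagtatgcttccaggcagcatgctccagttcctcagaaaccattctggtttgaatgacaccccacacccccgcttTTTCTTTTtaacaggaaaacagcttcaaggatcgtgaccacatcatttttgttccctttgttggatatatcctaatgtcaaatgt
Lgals9: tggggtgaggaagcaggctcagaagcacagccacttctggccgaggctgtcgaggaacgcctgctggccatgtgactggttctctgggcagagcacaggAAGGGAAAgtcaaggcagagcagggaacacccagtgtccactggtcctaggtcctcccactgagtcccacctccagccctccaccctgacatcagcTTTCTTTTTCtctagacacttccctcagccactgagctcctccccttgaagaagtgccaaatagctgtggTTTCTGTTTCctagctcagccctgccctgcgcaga
Cd47: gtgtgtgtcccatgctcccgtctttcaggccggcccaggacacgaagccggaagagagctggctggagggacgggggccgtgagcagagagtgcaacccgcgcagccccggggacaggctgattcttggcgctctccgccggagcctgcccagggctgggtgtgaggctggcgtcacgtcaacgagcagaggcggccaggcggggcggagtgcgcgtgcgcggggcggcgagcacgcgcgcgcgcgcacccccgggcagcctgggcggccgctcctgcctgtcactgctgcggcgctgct
The Cd274 window held an IRF element beginning 175 bases before the start (TTTCGTTT, a match on the opposite strand), an ISRE core beginning 76 bases before it (TTCGGTTTC, opposite strand) and the kappaB form beginning 154 bases before it. The Lgals9 window held 3 IRF elements, beginning 151 and 55 bases before the start and 15 bases after it. Its 2 ISRE cores, beginning 54 bases before and 16 bases after the start, overlap the last 2 of these. In the Pdcd1lg2 window there was 1 IRF element, beginning 35 bases before the start. The windows of Cd47 (both RefSeq starts), Cd276 and Pvrl2 held none of the 4 motifs, and no window held the gamma-activated site. Both Cd47 windows lie inside the GENCODE span of the gene, which begins at chr16:49800533. The Cd276 and Pvrl2 windows also lie inside the GENCODE spans of their genes. On the minus strand these spans begin at chr9:58555437 for Cd276 and at chr7:19750483 for Pvrl2. For Cd47, Cd276 and Pvrl2 the bases before the GENCODE start were not searched. A match is a string of letters and not a measured binding site, and a window without one says only that these letters are not in it.

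The libraries held 5375649 to 7153480 counts, of which 21.1% to 28.5% fell on Rn45s, the ribosomal RNA precursor. Adar itself was counted in every library, at 72.2 ± 2.05 CPM (normalised counts scaled to a common library size; SD, n = 3) in control and 59.5 ± 5.26 in Adar-null cells with vehicle, and at 384 ± 7.47 and 408 ± 21.2 with IFNb. By the edgeR quasi-likelihood test Adar was lower in Adar-null cells with vehicle (log2 fold change -0.28 ± 0.08, SE; adjusted p = 0.0017). Under IFNb the difference did not pass (0.09 ± 0.05; adjusted p = 0.0817), and the IFNb responses differed by 0.36 ± 0.09 (adjusted p = 2.93e-05). A count over the whole gene does not test a small deletion made by Cas9. All 9 melanocyte markers looked at were expressed, with a summed level of 19020 to 20400 CPM in the vehicle libraries, 19250 to 19570 in control cells with IFNb and 15350 to 16380 in Adar-null cells with IFNb, a difference whose part in the results was not tested. Single markers moved more than the sum: with IFNb in control cells Dct fell by 0.80 ± 0.06 on the log2 scale and Gpnmb rose by 0.66 ± 0.06. Under IFNb 8 of the 9 were lower in Adar-null than in control cells, beside 36.2% of all genes tested. Slc45a2 was lower by the most (-1.61 ± 0.06). Of 16 leukocyte markers, 9 to 12 were at 0 in a group, and their sum was 1.58 to 2.40 CPM in the vehicle libraries and 3.16 to 5.74 CPM in the IFNb libraries. The one tested, Cd68, a lysosomal protein gene of macrophages, rose with IFNb in both genotypes (1.33 ± 0.41 and 0.91 ± 0.39). Ptprc, which encodes the pan-leukocyte protein CD45, had 1 count in all. Of 10 fibroblast, endothelial and epithelial markers, 4 to 8 were at 0, with a sum of 1.11 to 3.30 CPM. CPM are shares of a library, so fewer transcripts of a gene per cell and more RNA from other genes cannot be told apart.

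Cd274, the PD-L1 gene (chr19:29367455-29388095 of GRCm38, plus strand), was counted at 4.22, 5.28 and 4.88 CPM in the 3 control libraries with vehicle and at 4.97, 5.25 and 5.53 CPM in the Adar-null libraries with vehicle. With IFNb it was at 27.2, 28.5 and 26.7 CPM in control cells and at 114.2, 119.1 and 116.9 CPM in Adar-null cells. Every IFNb library lay above every vehicle library, every Adar-null library with IFNb lay above every control library with IFNb, and the vehicle groups overlapped. The gene rose 5.71-fold with IFNb in control cells (log2 fold change 2.51 ± 0.18, SE; adjusted p = 7.21e-32) and 22.2-fold in Adar-null cells (4.47 ± 0.16; adjusted p = 2.51e-69). Its response in Adar-null cells was thus 3.89 times that in control cells, and this difference of responses passed the interaction test (1.96 ± 0.23 on the log2 scale; adjusted p = 1.94e-12). Under IFNb the Adar-null cells held 4.25 times the level of control cells (2.09 ± 0.08; adjusted p = 1.22e-50). Under vehicle no difference between genotypes was detectable at this depth (0.13 ± 0.22; adjusted p = 0.817), with a 95% interval of -0.31 to 0.56 that rests on 83 and 98 counts. Ordered from the largest rise of all 11561 genes tested, Cd274 stood at place 157 in control cells and at place 159 in Adar-null cells.

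**Figure D1:**
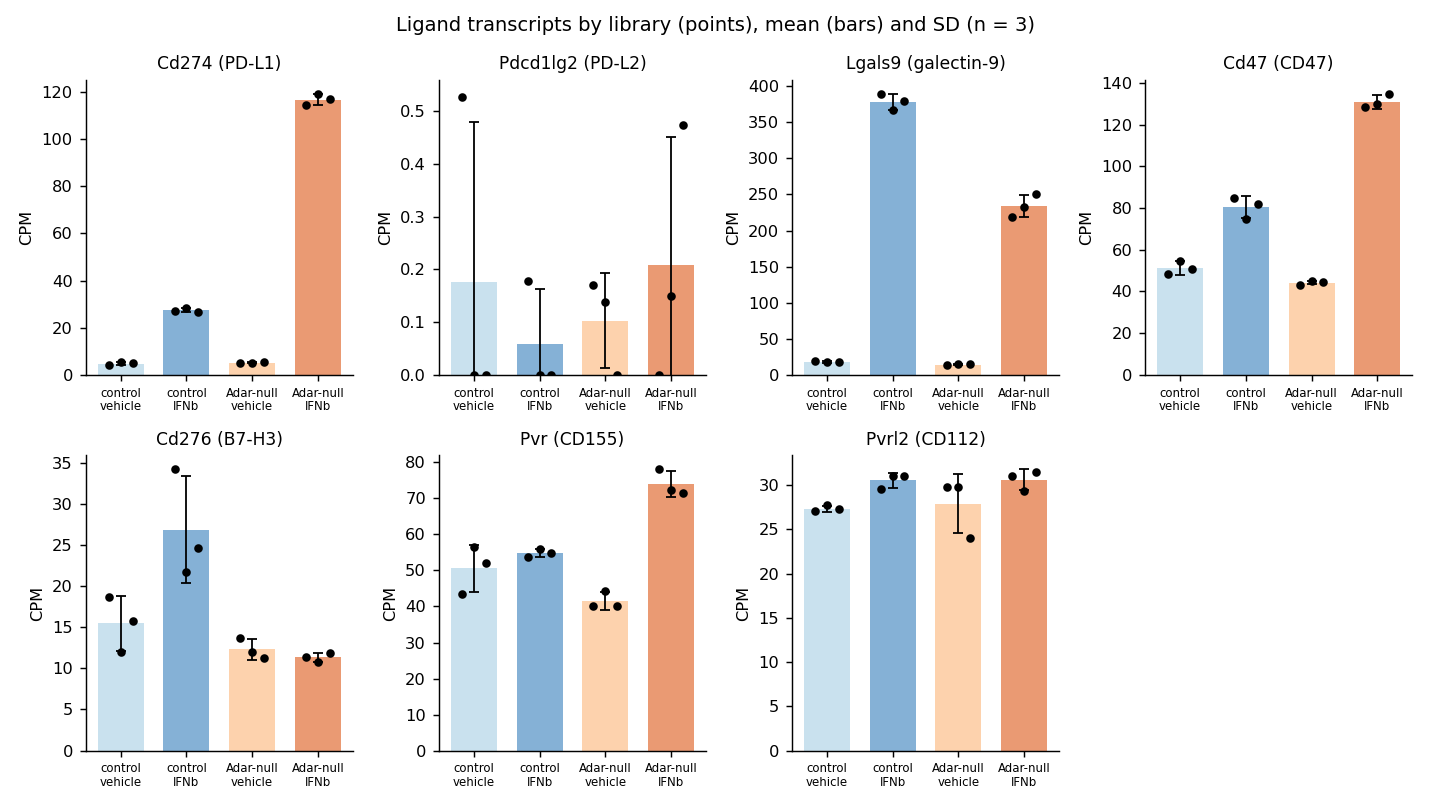
Normalised counts (CPM, linear axes that start at 0) of the 7 ligand genes in the 4 groups, with each library as a point, the mean as a bar and the SD over 3 libraries as a whisker. Cd274 with IFNb averages 116.7 CPM in Adar-null cells against 27.4 in control cells, Lgals9 is higher in the control cells with IFNb, and Pdcd1lg2 stays under 1 CPM everywhere.

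Pdcd1lg2, which encodes the other PD-1 ligand, PD-L2, lies 22824 bases beyond Cd274 on the same strand (chr19:29410919-29471161). It was counted 3, 0 and 0 times in control libraries with vehicle, 1, 0 and 0 times in control libraries with IFNb, 1, 1 and 0 times in Adar-null libraries with vehicle, and 0, 1 and 3 times in Adar-null libraries with IFNb. These 10 counts kept it out of the tests, and no fold is given. A floor of 3 counts over a group corresponds to 0.157 to 0.174 CPM. The pooled level in Adar-null cells with IFNb was 0.219 CPM, with an exact 95% counting interval of 0.0597 to 0.561, and in control cells with vehicle it was 0.174 (0.0358 to 0.507). At this depth a change of PD-L2 transcripts was not detectable in either genotype, while the adjacent Cd274 rose in both.

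Lgals9, the galectin-9 gene (chr11:78962974-78984946, minus strand), was counted at 18.8, 17.3 and 17.5 CPM in control libraries with vehicle and at 389, 367 and 380 CPM with IFNb. In Adar-null libraries it was at 13.2, 14.5 and 14.97 CPM with vehicle and at 219, 233 and 250 CPM with IFNb. The Adar-null libraries lay below the control libraries under both treatments, without overlap. Lgals9 rose 21.1-fold in control cells (4.40 ± 0.09; adjusted p = 2.76e-90) and 16.4-fold in Adar-null cells (4.04 ± 0.10; adjusted p = 5.25e-83), and it was the largest rise of the 6 tested ligands in control cells. The response was smaller in Adar-null cells by 0.36 ± 0.14 on the log2 scale (interaction -0.36; adjusted p = 0.00799). Under IFNb the level in Adar-null cells was 1.62-fold lower than in control cells (-0.69 ± 0.05; adjusted p = 3.75e-29). Under vehicle the groups did not overlap, yet the difference did not pass the test (-0.33 ± 0.13; adjusted p = 0.0765). Cd274 and Lgals9 thus differed between the genotypes in opposite directions under IFNb.

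Cd47, whose product binds SIRP-alpha (chr16:49800533-49915010, plus strand), was counted at 48.3, 54.8 and 50.6 CPM in control libraries with vehicle and at 84.7, 74.7 and 81.8 CPM with IFNb. In Adar-null libraries it was at 43.3, 44.9 and 44.4 CPM with vehicle and at 128.4, 129.9 and 134.8 CPM with IFNb. None of the 4 groups overlapped another, and the order from the highest was Adar-null with IFNb, control with IFNb, control with vehicle, Adar-null with vehicle. Cd47 rose 1.56-fold with IFNb in control cells (0.64 ± 0.07; adjusted p = 1.25e-14) and 2.96-fold in Adar-null cells (1.57 ± 0.07; adjusted p = 5.23e-45). The difference of the responses was 0.92 ± 0.10 (adjusted p = 3.37e-15), and under IFNb Adar-null cells held 1.64 times the control level (0.71 ± 0.06; adjusted p = 2.23e-21). Under vehicle the difference of -0.21 ± 0.08 did not pass (adjusted p = 0.0782), so the lowest 2 groups of the order do not differ by the test.

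Cd276, the B7-H3 gene (chr9:58524298-58555437, minus strand), differed between the genotypes under IFNb in the direction opposite to Cd47. It was counted at 18.6, 12.04 and 15.7 CPM in control libraries with vehicle and at 34.2, 21.7 and 24.6 CPM with IFNb, and at 13.7, 12.01 and 11.2 CPM in Adar-null libraries with vehicle and 11.4, 10.8 and 11.9 CPM with IFNb. Only the control libraries with IFNb stood above all the others, and the replicate 1 library was the highest in both control groups. Cd276 rose 1.72-fold with IFNb in control cells (0.78 ± 0.14; adjusted p = 8.13e-07). In Adar-null cells no change passed the test (-0.12 ± 0.17; 95% interval -0.45 to 0.21; adjusted p = 0.528). The difference of responses was -0.90 ± 0.21 (adjusted p = 0.000201), and with IFNb the level was 2.34-fold lower in Adar-null than in control cells (-1.22 ± 0.15; adjusted p = 5.24e-12). The vehicle difference of -0.32 ± 0.16 did not pass (adjusted p = 0.236).

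Pvr, the CD155 gene (chr7:19903578-19921160, minus strand), was counted at 43.6, 56.4 and 52.0 CPM in control libraries with vehicle, and at 53.8, 56.1 and 54.9 CPM in control libraries with IFNb. In Adar-null libraries it was at 40.1, 44.3 and 40.1 CPM with vehicle and at 78.0, 72.3 and 71.5 CPM with IFNb. The Adar-null libraries with IFNb stood above all the others, and the remaining groups overlapped in part. Pvr rose 1.77-fold with IFNb in Adar-null cells (0.82 ± 0.08; adjusted p = 1.32e-18). In control cells the change did not pass (0.11 ± 0.08; interval -0.04 to 0.27; adjusted p = 0.207), although without the control vehicle library of replicate 2 it did (adjusted p = 0.046). The responses differed by 0.71 ± 0.11 (adjusted p = 9.49e-09), and under IFNb the Adar-null level was 1.34 times the control level (0.42 ± 0.07; adjusted p = 8.40e-08). Under vehicle Pvr was lower in Adar-null cells (-0.28 ± 0.08; adjusted p = 0.0173), a call lost under DESeq2 (Wald test, adjusted p = 0.138). It was also lost without replicate 2 or 3 of the control vehicle libraries (adjusted p = 0.278 and 0.0599) and without replicate 1 or 3 of the Adar-null vehicle libraries (0.102 and 0.0639).

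Pvrl2, the CD112 gene (chr7:19716644-19750483, minus strand), was nearly level over the experiment. It was counted at 27.1, 27.7 and 27.3 CPM in control libraries with vehicle, 29.6, 31.03 and 31 CPM in control libraries with IFNb, 29.8, 29.8 and 24.1 CPM in Adar-null libraries with vehicle, and 31.1, 29.3 and 31.5 CPM in Adar-null libraries with IFNb. The control groups did not overlap each other, yet no comparison of Pvrl2 passed the test. Its response to IFNb was 0.16 ± 0.10 in control cells (interval -0.04 to 0.36; adjusted p = 0.174) and 0.12 ± 0.10 in Adar-null cells (-0.07 to 0.32; adjusted p = 0.254). The genotypes differed by 0.04 ± 0.10 with vehicle (-0.17 to 0.24), and with IFNb the 95% interval of the difference ran from -0.19 to 0.19. The 95% interval of the interaction ran from -0.32 to 0.25. Pvr and Pvrl2, both ligands of DNAM-1 and TIGIT, thus had a called and an uncalled difference of responses; the difference between the 2 genes was not tested.

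Counted over the 6 tested ligands, IFNb in control cells raised 4 (Cd274, Lgals9, Cd47 and Cd276). Of all 11561 genes, 53% passed the test there, 26.5% as higher and 26.5% as lower. In Adar-null cells IFNb raised 4 (Cd274, Lgals9, Cd47 and Pvr), beside 72.3% of all genes called, 36.6% upward and 35.7% downward. Under IFNb 5 of the 6 differed between the genotypes, with Cd274, Cd47 and Pvr higher and Lgals9 and Cd276 lower in Adar-null cells, beside 72.6% of all genes, 36.4% as higher and 36.2% as lower. The interaction was called for the same 5 genes, 3 with a larger and 2 with a smaller or absent rise, beside 59.3% of all genes, 28.6% with a larger and 30.7% with a smaller value. Under vehicle Pvr alone was called, as lower, beside 6.51% of all genes, 2.47% as higher and 4.05% as lower. Counted in either direction, the ligands called under IFNb are not far from these shares of all genes. The 4 rises of 6 are a larger share than that of all genes, which with 6 genes was not tested. Groups without overlap were found for 5 of the 6 genes with IFNb in control cells against 57.6% of all genes, for 4 in Adar-null cells against 73.7%, for 5 between genotypes under IFNb against 74%, and for 2 (Lgals9 and Cd47) between genotypes under vehicle against 22.3%. The median log2 fold change of the 6 genes was 0.71 with IFNb in control cells and 1.20 in Adar-null cells, beside -0.005 and 0.01 over all genes tested. The IFNb comparison in each genotype and the genotype comparisons share libraries, so these counts are not independent of each other.

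**Figure D2:**
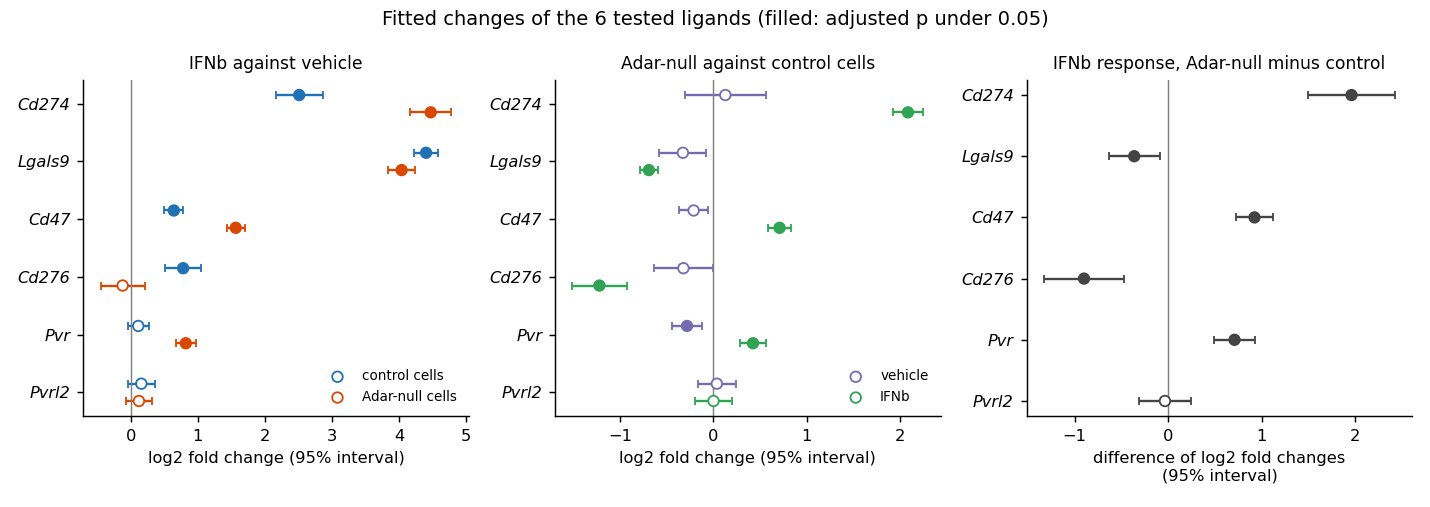
Fitted log2 fold changes of the 6 tested ligands with 95% intervals, for IFNb against vehicle in each genotype (left), Adar-null against control cells under each treatment (middle) and the difference of the IFNb responses (right). Filled points passed an adjusted p under 0.05: in the right panel Cd274 (1.96), Cd47 (0.92) and Pvr (0.71) lie above 0, Lgals9 (-0.36) and Cd276 (-0.90) below it, and Pvrl2 at it.

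**Figure D3:**
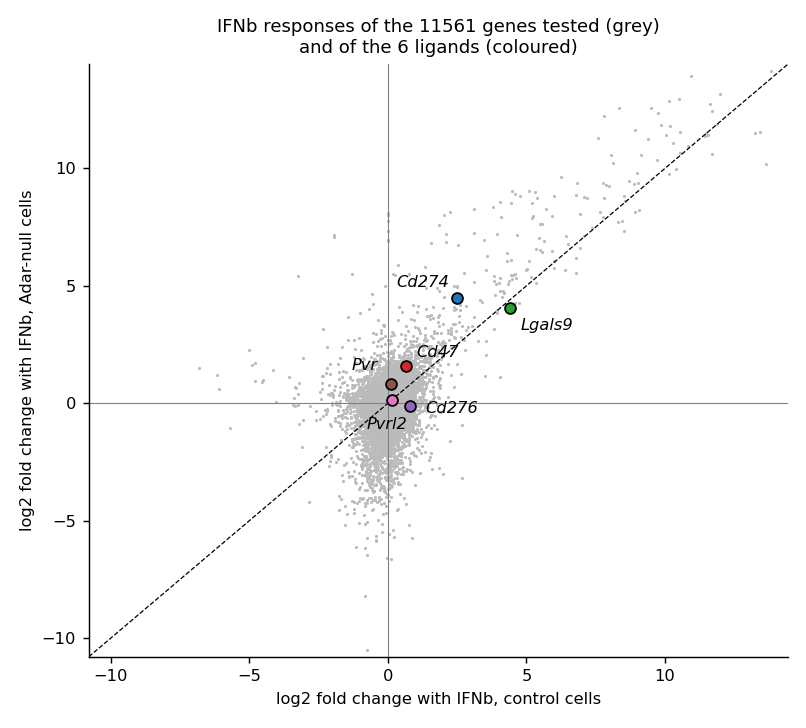
Log2 fold change with IFNb in control cells (x axis) against that in Adar-null cells (y axis) for the 11561 tested genes in grey and the 6 tested ligands in colour, with the line of equal responses dashed. Cd274 lies above the line at 2.51 and 4.47, Lgals9 just below it at 4.40 and 4.04, and Cd276 below it at 0.78 and -0.12. No library enters both axes.

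To set the genes against each other, CPM were divided by the length of the annotated exons of each gene in kilobases (kb). In control cells with vehicle, Lgals9 (8.37 CPM per kb), Pvr (8.28), Cd47 (8.16) and Pvrl2 (7.83) each overlapped the next, Cd276 (4.23) and Cd274 (1.32) were lower, and Pdcd1lg2 was at 0.0896. In Adar-null cells with vehicle the same 4 genes led, with Pvrl2 at 7.99, Cd47 at 7.04, Pvr at 6.78 and Lgals9 at 6.65 CPM per kb, each again overlapping the next. With IFNb in control cells Lgals9 reached 177 CPM per kb, ahead of Cd47 at 12.8, and Pvr (8.97) overlapped Pvrl2 (8.74) as Cd274 (7.58) overlapped Cd276 (7.34). With IFNb in Adar-null cells the order had no overlaps: Lgals9 at 109 CPM per kb, Cd274 at 32.2, Cd47 at 20.9, Pvr at 12.1, Pvrl2 at 8.76 and Cd276 at 3.10. Cd274 therefore went from next to last in each vehicle group to second in Adar-null cells with IFNb.

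The summed length-scaled level of the 7 genes was 38.3 ± 0.422 CPM per kb in control cells with vehicle, 222.6 ± 7.06 with IFNb, 33.3 ± 1.20 in Adar-null cells with vehicle and 186.6 ± 7.96 with IFNb. Lgals9 made up 79.6% of that sum in control cells with IFNb and 58.6% in Adar-null cells with IFNb, against 21.9% and 19.99% with vehicle. Cd274 made up 3.41% of it in control cells with IFNb and 17.3% in Adar-null cells with IFNb. The order among the 4 leading genes and the shares of the sum depend on the gene model. The shares were computed with all annotated exons only. With the longest annotated transcript in place of all exons, Pvr came first in both vehicle groups and passed Cd47 in both IFNb groups. The exon union of Pvr is 6122 bases and its longest transcript 2905. For Lgals9 these lengths are 2137 and 1586, and for Cd274 both are 3622.

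**Figure D4:**
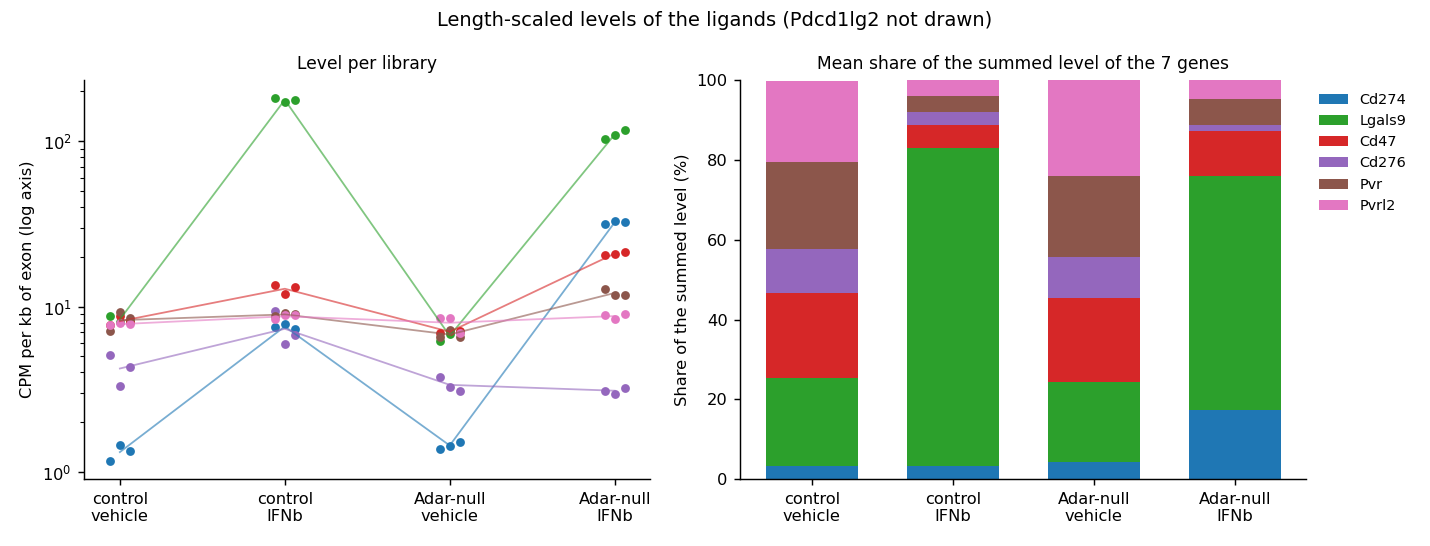
Left, CPM per kb of annotated exon (log axis) of 6 ligand genes in each library, with lines through the group means; right, the mean share of the summed level of the 7 genes in each group. Lgals9 fills 79.6% of the sum in control cells with IFNb, and the share of Cd274 is 17.3% in Adar-null cells with IFNb against 3.41% in control cells with IFNb. The shares rest on all annotated exons and depend on that gene model.

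Genes with the most similar pattern were sought among all tested genes by the root mean square difference of the 3 log2 fold changes against control vehicle, over 4 groups and 12 libraries. For Cd274 they were Apobec1, a cytidine deaminase gene (difference 0.18), 9530053A07Rik (0.21, at a mean of only 0.703 CPM) and Gbp11, of the guanylate-binding proteins (0.22), a family whose near-identical copies make its counts uncertain. For Lgals9 the nearest were B2m, the light chain of MHC class I (0.27), Trim25, a ubiquitin ligase gene (0.37), and Parp9 (0.47), so that its nearest genes were farther off than those of the other 5. For Cd47 they were Rnd3 (0.05), Trim14 (0.06) and Ddr1 (0.07), and for Cd276 Tubb6 (0.06), Ephx1 (0.07) and Vamp5 (0.07). For Pvr they were Jund, Rhou and Atxn7l1 (0.04 to 0.05), and for Pvrl2 Cry2, Ttll5 and Snx8 (0.01 to 0.02).

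A list of 22 genes, all tested, held interferon signalling genes and transcription factors and other regulators of Cd274, among them the kinase gene Cdk5. Of these, 10 were higher and 4 lower with IFNb in control cells, and 12 higher and 4 lower in Adar-null cells. These are 63.6% and 72.7% of the list, beside 53% and 72.3% of all genes, so in Adar-null cells the share called is that of all genes. The median log2 fold changes were 0.15 and 0.16, beside -0.005 and 0.01 over all genes. Among the largest rises were those of 2 transcription factor genes of the type I interferon response, Irf9 (5.15 ± 0.21 in control and 5.38 ± 0.19 in Adar-null cells) and Stat2 (4.44 ± 0.15 and 5.44 ± 0.13). The interaction was called higher for 10 and lower for 3 of the 22 (59.1%, beside 59.3% of all genes). It was largest for Jun, of the AP-1 factors (1.61 ± 0.09), Irf2 (1.52 ± 0.17) and Stat2 (1.01 ± 0.20), and lowest for Socs3, a feedback inhibitor of JAK signalling (-1.36 ± 0.27), Myc (-0.85 ± 0.09) and Ifnar1, a chain of the type I interferon receptor (-0.45 ± 0.09). Under IFNb, 12 of the 22 were higher and 6 lower in Adar-null than in control cells (81.8%, beside 72.6% of all genes). Among the higher, Stat2 differed by 1.45 ± 0.05 and Irf2 by 1.33 ± 0.11. With vehicle 1 was higher and 2 were lower (13.6%, beside 6.51% of all genes). The lower ones were Jun (-0.41 ± 0.07) and Hif1a (-0.29 ± 0.06).

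**Figure D5:**
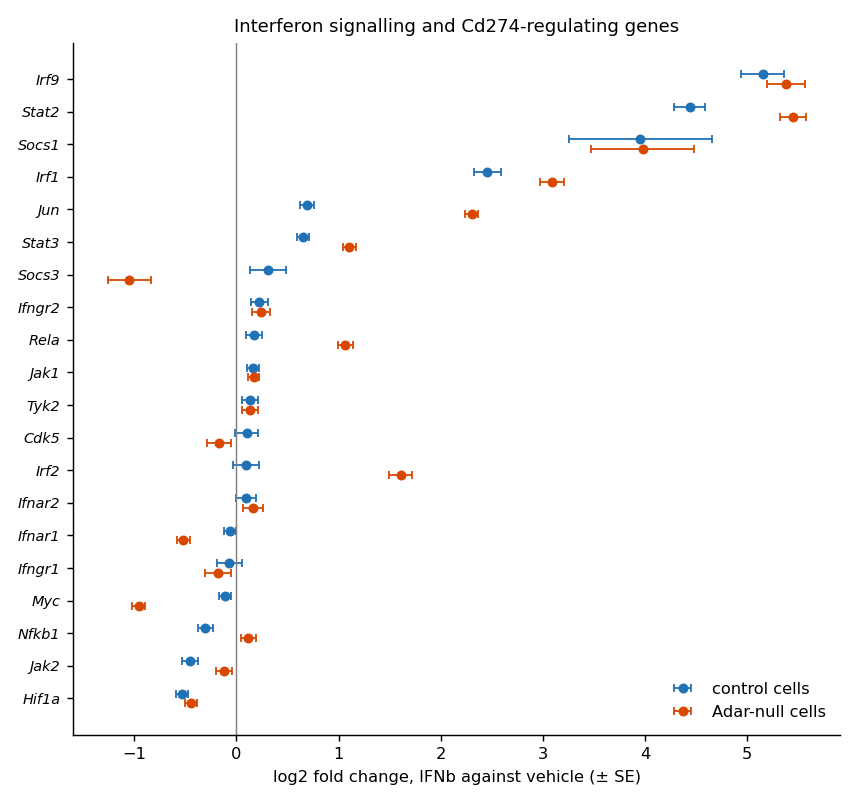
Log2 fold change with IFNb (points, ± SE) of 20 of the 22 interferon signalling and Cd274-regulating genes in control and Adar-null cells. Irf9 and Stat2 lie above 4 in both genotypes, Jun and Irf2 lie farther to the right in Adar-null cells, and Socs3 and Myc lie farther to the left.

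Genes that act on the ligand proteins after transcription were also measured, together with Thbs1, the gene of the CD47 ligand thrombospondin, 15 of 16 being tested. With IFNb 3 were higher and 5 lower in control cells, and 5 higher and 3 lower in Adar-null cells. The 8 called in each genotype are 53.3% of those tested, beside 53% and 72.3% of all genes. Cmtm3 rose in both genotypes (0.50 ± 0.10 and 1.22 ± 0.09), and more in Adar-null cells (interaction 0.72 ± 0.13; adjusted p = 5.37e-07). Cmtm4, whose product stabilises PD-L1, fell by 0.60 ± 0.06 in control cells and fell by 0.74 ± 0.07 in Adar-null cells. Cops5, the deubiquitinase subunit of the COP9 signalosome that stabilises PD-L1, rose in control cells (0.63 ± 0.07), with an interaction of -0.60 ± 0.10. B3gnt3, a glycosyltransferase gene, rose in control cells (0.81 ± 0.28; adjusted p = 0.00828), with an interaction of -1.06 ± 0.46 (adjusted p = 0.0364). Its counts were low, at 55 with vehicle and 107 with IFNb in control cells, and 44 and 36 in Adar-null cells. The control libraries with IFNb were uneven (5.47 ± 2.49 CPM, SD). Stub1, a ubiquitin ligase gene, fell by 0.77 ± 0.10 in Adar-null cells. For the interaction 4 were higher and 3 lower (46.7%, beside 59.3% of all genes). Under IFNb between genotypes 6 were higher and 4 lower (66.7%, beside 72.6%), and under vehicle 2 were lower (13.3%, beside 6.51% called in either direction).

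Of 10 receptor genes of the ligands 9 are in the table, and 5 of these were at or under 3 counts in every group. Pdcd1 (PD-1), Cd226 (DNAM-1) and Trem2 had no count in any library. The 4 tested were Sirpa, Cd44, P4hb and Havcr2. In control cells with vehicle Sirpa averaged 321.7 CPM, Cd44 457.5 and P4hb 764.2, and Havcr2 only 1.685. The summed level of the 9 was 1098 to 1565 CPM over the libraries, far above that of the leukocyte markers. Sirpa, the CD47 receptor gene, fell by 0.30 ± 0.06 with IFNb in control cells and fell by 0.24 ± 0.06 in Adar-null cells. Cd44, an adhesion receptor gene whose product galectin-9 binds, rose by 0.23 ± 0.06 in control cells and fell by 0.94 ± 0.06 in Adar-null cells (interaction -1.16 ± 0.08; adjusted p = 1.03e-36). Havcr2, the TIM-3 gene, was lower with IFNb in Adar-null cells (-1.51 ± 0.65; adjusted p = 0.0173), on only 24 counts with vehicle and 8 with IFNb. All 4 tested were lower with IFNb in Adar-null cells, beside 35.7% of all genes. In control cells 1 was higher and 1 lower (50% of the 4, beside 53% of all genes).

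Of 29 other co-signalling ligands and ectoenzymes, 9 were tested, and 20 stayed under the filter on low counts. With IFNb 4 were higher and 1 lower in control cells, and 4 and 4 in Adar-null cells. The shares called, 55.6% and 88.9% of the 9, stand beside 53% and 72.3% of all genes. Tnfsf10, the gene of the death ligand TRAIL, had no count in either vehicle group and 85 counts in control and 250 counts in Adar-null cells with IFNb, at least 25.7-fold and at least 85.3-fold higher against a floor of 3 counts over the group. H2-T23, the Qa-1 gene whose product presents peptides to NKG2A, rose by 5.99 ± 0.43 and 6.07 ± 0.41, although class I H2 genes have near-identical copies that make these counts uncertain. Lgals3, the galectin-3 gene, rose in control cells (1.06 ± 0.08) and had an interaction of 1.36 ± 0.11, the opposite sign of Lgals9. Hmgb1, a nuclear alarmin gene, fell by 0.37 ± 0.08 in control cells and fell by 1.49 ± 0.10 in Adar-null cells, and Lgals1, the galectin-1 gene, fell by 1.15 ± 0.06 in Adar-null cells. Tnfsf9, the 4-1BB ligand gene, had an interaction of -1.54 ± 0.27, and Ceacam1, a homophilic adhesion gene, of -1.67 ± 0.47. Btn2a2, a butyrophilin gene, had 158 counts in control cells with vehicle and none in Adar-null cells with vehicle, at least 56.9-fold lower. The split was also there with IFNb, at 125 counts in control and 1 in Adar-null cells (log2 fold change -6.45 ± 1.58). For the interaction 1 was higher and 4 lower (55.6%, beside 59.3% of all genes). Tnfsf10 and Btn2a2 are counted there as not called, although a vehicle group at 0 counts leaves their difference of responses undetermined. Under IFNb between genotypes 3 were higher and 5 lower (88.9%, beside 72.6%), and under vehicle 1 was lower (11.1%, beside 6.51% called in either direction).

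Among 20 other nectins, nectin-like molecules and ligands of NK-cell receptors, 18 are in the table and 5 were tested. Pvrl3, the nectin-3 gene, fell by 0.36 ± 0.09 with IFNb in control cells and fell by 0.43 ± 0.09 in Adar-null cells. Cadm1, a nectin-like adhesion gene whose product binds CRTAM, fell by 0.57 ± 0.05 in control cells and fell by 1.82 ± 0.06 in Adar-null cells, with an interaction of -1.25 ± 0.08 (adjusted p = 1.47e-31). Clec2d, a C-type lectin ligand gene of an inhibitory NK receptor, had no count with vehicle and 85 and 159 counts with IFNb, at least 25.7-fold and 54.3-fold higher. Pcna, best known as the sliding clamp of DNA replication, rose by 0.29 ± 0.06 in control cells and fell by 1.995 ± 0.096 in Adar-null cells. In all 2 were higher and 2 lower with IFNb in control cells, and 1 and 3 in Adar-null cells. That is 80% of the 5 in each, beside 53% and 72.3% of all genes. Between genotypes under IFNb 2 were higher and 2 lower (80%, beside 72.6% of all genes), and 2 had a lower interaction (40%, beside 59.3%). Clec2d is counted there as without a called interaction, although its lack of counts with vehicle leaves its difference of responses undetermined.

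The genes annotated on either side of the 7 were looked at as their surroundings on the chromosome. Of 25 such neighbours in RefSeq 12 were tested: 1 was higher and 4 were lower with IFNb in control cells, 1 and 5 in Adar-null cells, 4 and 5 between genotypes under IFNb, and 2 and 4 in the interaction. The shares called, 41.7%, 50%, 75% and 50%, stand beside 53%, 72.3%, 72.6% and 59.3% of all genes, so the neighbours were called about as often as other genes or less. Insl6, 36789 bases before Cd274, passed in neither IFNb response (0.03 ± 0.30 and -0.65 ± 0.37) and was lower in Adar-null than in control cells under IFNb (-1.02 ± 0.36; adjusted p = 0.00577), and Rln1 had 22 counts in all. A930007I19Rik, a noncoding gene beyond Pdcd1lg2 with 140 counts, was higher with IFNb in Adar-null cells (1.23 ± 0.39; adjusted p = 0.00204) and higher in Adar-null than in control cells under IFNb (1.32 ± 0.39; adjusted p = 0.00108). Its interaction of 1.83 ± 0.58 (adjusted p = 0.00364) was the largest called among the neighbours, beside 1.96 ± 0.23 for Cd274. In GENCODE it runs on the strand opposite to Pdcd1lg2 and the 2 genes share chr19:29464750-29471161, while in RefSeq it lies 30736 bases away. The strand setting of the counting is unstated, so within that stretch reads of the 2 genes cannot be told apart. Genes on the opposite strand overlap 5 of the 7 ligand genes in GENCODE, and A930007I19Rik is the one with a row in the table. 5033414D02Rik (Plgrkt) lies on the other side of Cd274, 43627 bases before Pdcd1lg2, and its RefSeq span overlaps that of Cd274. It fell by 0.66 ± 0.12 with IFNb in control cells and did not pass in Adar-null cells (adjusted p = 0.967; interaction 0.65 ± 0.16, adjusted p = 0.000221). Next to Cd276, Nptn, a cell adhesion gene, had an interaction of -0.45 ± 0.09, of the same sign as that of Cd276 and smaller. Farther on the same side, 2410076I21Rik (Rec114) had an interaction of -0.88 ± 0.29 (adjusted p = 0.00506), near the -0.90 ± 0.21 of Cd276. Neither Tomm40, a mitochondrial import gene 1202 bases from Pvrl2, nor Pvrl2 itself passed the test in any comparison. Apoe, 15334 bases from Pvrl2, did: it fell by 1.32 ± 0.06 with IFNb in Adar-null cells (adjusted p = 2.77e-48). Its change in control cells did not pass (0.06 ± 0.06; adjusted p = 0.278), and its interaction was -1.38 ± 0.08 (adjusted p = 1.52e-37).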

How the data were processed

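RNA of 12 libraries of B16 cells was measured as counts of reads per gene symbol. The deposited table holds raw counts that were not normalised. Per the labels' protocols, rRNA-depleted directional libraries were sequenced from both ends at 37 bp. The submitters' processing notes name build mm10 and, in no stated role, Bowtie2 2.2.4, HTSeq 0.6.1p1, Trimmomatic 0.33, bcl2fastq 2.19.1 and DESeq2. The strand setting of the counting is not given in the sources read.

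Genes were filtered with filterByExpr by group (minimum count 10, minimum total 15), which left 11561, and scaled by TMM. The edgeR 4.0.16 quasi-likelihood test (glmQLFit, robust) ran over all 12 libraries with 1 term per group, in R 4.3.3. Calls were made at a Benjamini-Hochberg adjusted p under 0.05 over all genes in each of 5 comparisons; the interaction takes the IFNb response of control cells from that of Adar-null cells. Errors are SDs over 3 libraries for CPM and Wald standard errors for log2 fold changes; 95% intervals and floors cover counting error only where they rest on pooled counts. The common biological coefficient of variation was 0.0397. Replicate pairs differed by more than sampling noise. Positions and exon lengths come from GENCODE vM21 on GRCm38, the same assembly as mm10, and promoters from RefSeq.

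The genes and lists were chosen with earlier results of these data known. Besides the 7 genes and Adar, the rule names for each list the up to 3 largest called rises and falls in the IFNb responses and the interaction (up to 2 between genotypes), of which a selection is printed. It also names for each ligand the 3 genes most like it, and its nearest 2 neighbours on each side. Alternatives were 3 other scalings, Rn45s left out, no filter, DESeq2 1.42.0, limma-voom (limma 3.58.1), only the groups compared, a replicate block, leaving out each library, the longest transcript, and promoters without the bases after the start. The scripts were tested on simulated data. Some genes of the lists are not reported here by name.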

Additional observations from a re-analysis of the deposited data

Results flagged for a closer look

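The IFNb response differed between the genotypes, by the interaction term of the edgeR quasi-likelihood fit, for 5 of the 6 tested ligands. On the log2 scale the response of Adar-null cells was larger for Cd274 (1.96), Cd47 (0.92) and Pvr (0.71), and smaller for Cd276 (-0.90) and Lgals9 (-0.36). Of all genes tested 59.3% had a called interaction, so the count says little about these 5 genes, and the values are given for their size and direction. The weakest of the 5 was that of Lgals9, whose adjusted p over the alternatives ran from 0.0017 to 0.0334. Beside these values, the summed melanocyte markers under IFNb were at 15350 to 16380 CPM in the Adar-null and at 19250 to 19570 CPM in the control libraries; their part in the result was not tested.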

How the results depend on the processing

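Of 30 fold changes of the 6 tested ligands, 25 kept their direction and their side of the threshold under every alternative run, and so did 600 of 624 alternative values. Under vehicle, 753 genes and 1 ligand (Pvr) were called between genotypes, against 289 and 0 with DESeq2 (Wald test), and 308 to 801 genes and 0 to 1 ligand when each library was left out. The fewest genes were called without control vehicle replicate 2 (308) and without Adar-null vehicle replicates 1 (393) and 2 (463). Pvrl2, never called, changed sign. Under IFNb its difference between genotypes was -0.018 with library size alone, -0.0069 without a filter, -0.0007 with limma-voom, -0.0081 with only the 2 groups compared, and -0.0359 to 0.0223 leaving out each library. Leaving out libraries gave -0.0194 to 0.1247 for its vehicle difference and -0.1259 to 0.0186 for its interaction. The cause was not tested. In the bases before the start alone, Lgals9 held 2 IRF elements and 1 ISRE core. With a replicate block, 711 genes were called under vehicle, 6075 and 8338 with IFNb in control and Adar-null cells, 8347 between genotypes under IFNb and 6816 for the interaction, with the same number of ligands called as without it in each. No pairing by replicate number was visible: of 18 same-number pairs none had deviations correlated over 0.1 (-0.1002 to 0.0618), and 3 of 12 libraries correlated best with their own number. Whether same-numbered libraries were handled together cannot be read from these correlations. Depth limits Pdcd1lg2, with 10 counts in all, and Cd274 under vehicle.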

Other observations

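Some ligands that the filter on low counts kept out of the tests had uneven counts, and they were picked after their values were seen. Ulbp1, a ligand gene of the activating NK receptor NKG2D, had 16 counts in control cells with vehicle, 30 in control cells with IFNb, 0 in Adar-null cells with vehicle and 33 in Adar-null cells with IFNb. Pvrl4, the nectin-4 gene, had 6 and 6 counts in control cells with vehicle and with IFNb, and 9 and 31 in Adar-null cells. Cd80, a ligand gene of CD28 and CTLA-4, had 1, 4, 3 and 13 counts in the same order of groups, while Cd86, its B7 partner, had none in any library. Icosl, the ICOS ligand gene, had 22 and 23 counts in control cells and 16 and 5 in Adar-null cells, with vehicle and IFNb. No test was made of these genes.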
